A study of Rattus norvegicus with 15 samples.

Results

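The 5 water-deprived arrays of a study of the rat subfornical organ carry 1 treatment label but fall into 2 sets by the signal at the 5′ end of their control transcripts. The sets were chosen by the measured signal of the probe sets that the array carries for Actb and Gapdh as controls: water-deprived arrays 1 and 2 have a mean log2 ratio of 5′ to 3′ signal above -1, and water-deprived arrays 3, 4 and 5 have one below it. They are 2 and 3 of the 15 arrays of the series, and the comparison between them covers every probe set that is not a control. Each array was hybridised with RNA pooled from the subfornical organs of 5 Sprague Dawley rats, all males of 10 to 12 weeks, with 5 arrays each for control, water deprivation and food deprivation. The food-deprived rats went without food for 48 h. The sources used here do not give how long water was withheld or which arrays were processed together, and the series' design text, read literally, has every group denied food.

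The subfornical organ is a sensory organ at the roof of the third ventricle, outside the blood-brain barrier, beneath the fornix and beside the choroid plexus. Its neurons sense angiotensin II, sodium and other signals of fluid balance and drive thirst and vasopressin release. RNA for arrays of this kind is copied from the poly-A tail, so copies begin at the 3′ end of a transcript. Where the RNA is broken or the copies are short, the 5′ end is under-represented, and the maker of the arrays places separate probe sets at the 5′ end, the middle and the 3′ end of a few transcripts to follow this.

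Actb, which encodes cytoplasmic actin, gave 5′ signals of 893 and 979 on arrays 1 and 2 and of 136, 438 and 424 on arrays 3, 4 and 5. At its 3′ end the signals were 2178 and 2310 against 1541, 1837 and 1665. Gapdh, a glycolytic enzyme, gave 5′ signals of 2150 and 2410 against 570, 1997 and 1447, and 3′ signals of 2594 and 2785 against 2476, 2796 and 2463. The sets thus lay farther apart at the 5′ end than at the 3′ end, and array 3 was the lowest at both 5′ ends. The mean log2 ratio over the 2 transcripts was -0.78 and -0.72 on arrays 1 and 2 and -2.81, -1.28 and -1.37 on arrays 3, 4 and 5. Array 1 (-0.78) and array 4 (-1.28) are the members nearest the dividing value on each side. These values chose the sets and are given as a description. The 5 food-deprived arrays had ratios of -0.86 to -0.71, the range of arrays 1 and 2, and the 5 controls had ratios of -1.67 to -1.24, the range of arrays 4 and 5.

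**Figure D1:**
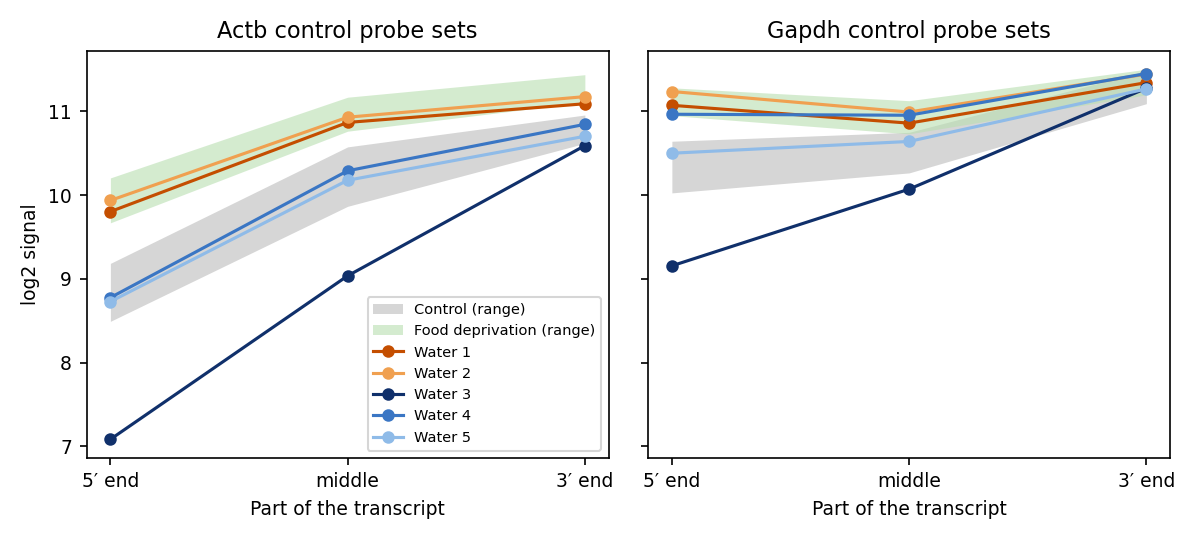
Log2 signal (vertical axis) of the 5′, middle and 3′ control probe sets of Actb (left) and Gapdh (right), with 1 line for each water-deprived array and shaded bands for the range of the 5 control and the 5 food-deprived arrays. Water-deprived array 3 is lowest at the 5′ end of both transcripts, and the Actb lines of arrays 1 and 2 lie within or near the food-deprived band and those of arrays 4 and 5 within the control band.

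Of the other control probe sets, which the division did not use, some separated the sets and some overlapped. The hybridization spike-ins, bacterial transcripts added to the labelled RNA, had a mean log2 signal of 9.75 and 9.91 on arrays 1 and 2 and of 9.33, 9.16 and 9.36 on arrays 3 to 5, without overlap. The probe set for the rat B1 repeat gave 115 and 98.7 against 65.0, 44.6 and 63.2, also without overlap. That for 5S ribosomal RNA overlapped, at 145 and 104 against 116, 71.2 and 88.6, as did the log2 5′ to 3′ ratio of hexokinase, a dim transcript, at -1.79 and -1.80 against -1.63, -3.36 and -2.83. The median signal was 45.6 and 45.7 against 38.1, 39.2 and 41.0, although the authors scaled every array to the same trimmed mean. Across all probe sets that are not controls, arrays 1 and 2 correlated at 0.974, arrays 3 to 5 at 0.941 to 0.98 with each other, and arrays of different sets at 0.893 to 0.96. With 2 arrays against 3, an exact permutation test of a single value cannot give a two-sided p below 0.2, so none is given for these measures. Array 3 stands apart from arrays 4 and 5 in its ratio, and calls of named genes that were lost without it are given beside them.

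The first question was how many transcripts differ between pools that had the same treatment. Of 21729 probe sets tested, 3461 (15.9%) passed limma's moderated test at an adjusted p of 0.05. Of these, 2062 (9.49%) were higher and 1399 (6.44%) lower on arrays 1 and 2. The sets did not overlap in 3459 of the 3461, against 47.1% of all probe sets tested (27.8% with arrays 1 and 2 higher and 19.2% with them lower). Overlap and test rest on the same values, so this count describes the calls and is no further support for them. The typical size of a difference that passed was 0.743 on the log2 scale, and 380 probe sets were over 2-fold higher and 370 over 2-fold lower. Counted by gene, with 1 probe set for each of 11510 genes, 746 were higher (6.48%) and 931 lower (8.09%). Because the arrays were divided after their control probe sets had been seen, these p values describe association with that division and not the effect of an assigned treatment.

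Array 3 contributed unequally to these calls. It was the array of its set farthest from arrays 1 and 2 in 2094 of the 3461 probe sets (60.5%), array 4 in 973 (28.1%) and array 5 in 394 (11.4%). Without array 3, all 3461 kept their sign, 1938 kept their call and 2052 probe sets passed in total. Without array 1, 721 were higher and 544 lower, and without array 2, 464 and 374, where the set is left with 1 array that is assumed to vary like the others. A fit of the 5 water-deprived arrays alone, with 3 residual degrees of freedom, left 118 higher and 202 lower. Of the 66 named genes that passed, 50 did so without array 3, 35 without array 1, 29 without array 2 and 21 in the fit of 5 arrays, Gosr1, H1f10, Sema4b and Nnat among the last. In that fit Avp (adjusted p = 0.0541), Oxt (0.0762), Vgf (0.0509) and Casr (0.0518) no longer passed, with the same differences.

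The balance of the directions followed signal level and scaling. In the dimmest of 5 bins of nearly equal size the median difference was 0.215, with 12.1% of probe sets higher and 1.91% lower on arrays 1 and 2. In the brightest bin the median was -0.006, with 7.73% higher and 10.7% lower. Median centring moved the median of all probe sets from 0.072 to -0.083 and turned the balance to 1076 higher and 2497 lower. Quantile normalization gave 1440 and 1471, with a median of 0.013. Scaling to the hybridization spike-ins, added after seeing the data, gave 71 higher and 3626 lower, with a median of -0.477. The share of higher calls was 59.6% as deposited, 49.5% after quantile normalization, 30.1% after median centring and 1.92% after spike-in scaling. All differences below are therefore relative to the authors' scaling, on the log2(signal + 16) scale, which understates the change of dim probe sets.

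**Figure D2:**
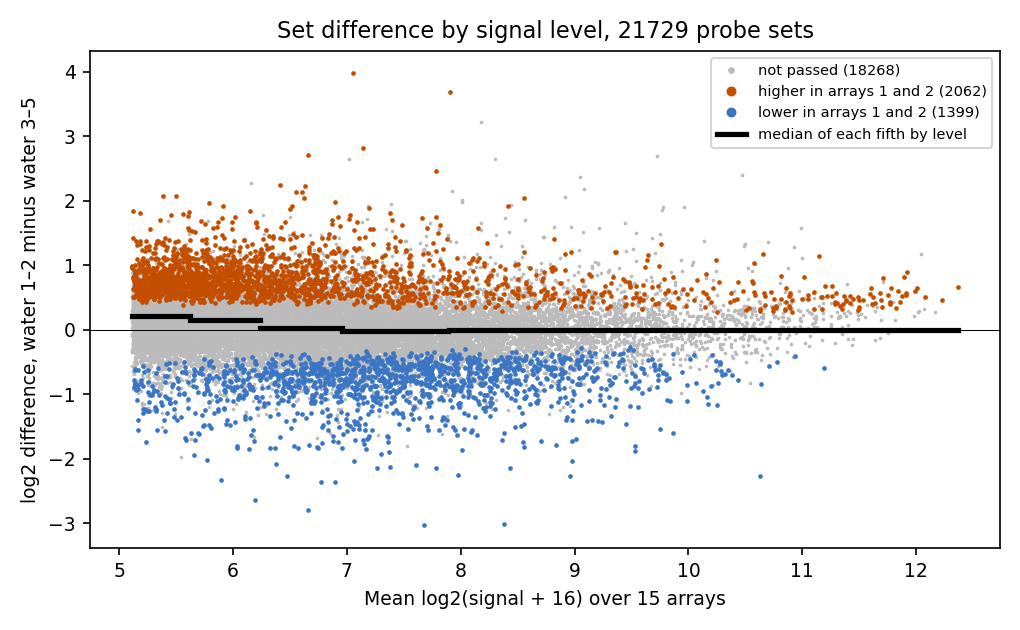
Log2 difference of water-deprived arrays 1 and 2 minus arrays 3 to 5 (vertical axis) against the mean log2(signal + 16) over 15 arrays (horizontal axis) for 21729 probe sets. Of the probe sets that passed, 524 were higher and 83 lower in the dimmest bin and 336 higher and 465 lower in the brightest, and the black steps give the median of each of 5 bins, from 0.215 in the dimmest to -0.006 in the brightest.

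With each gene represented by its brightest probe set, Gosr1, a SNARE protein of the Golgi apparatus, rose the most on arrays 1 and 2. Its levels were 9.91 and 9.63 against 6.02, 6.13 and 6.10, a difference of 3.68 (SE 0.186, 12.8-fold, adjusted p = 9.55e-08). The 5 control arrays held 5.87 to 6.34 and the 5 food-deprived arrays 9.63 to 10.37, so that this probe set separated all 15 arrays along the same line as the Actb and Gapdh ratio. The other 2 tested probe sets of Gosr1 did not pass, with differences of -0.24 (adjusted p = 0.237) and 0.55 (adjusted p = 0.0717).

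Rlig1, an RNA ligase, had levels of 6.67 and 6.31 against 4.88, 4.79 and 5.07, a difference of 1.57 (SE 0.171, adjusted p = 0.000112). Cxcr5, the receptor for the chemokine CXCL13, had 7.53 and 7.50 against 5.89, 6.36 and 5.86, a difference of 1.48 (SE 0.182, adjusted p = 0.000277). Strbp, a double-stranded RNA-binding protein, had 8.71 and 8.56 against 7.29, 7.05 and 7.35, a difference of 1.41 (SE 0.151, adjusted p = 9.76e-05). Its second tested probe set differed by -0.56 (adjusted p = 0.232). In the brightest probe sets of these 3 genes each set was tight and the gap between the sets exceeded the spread within either. The food-deprived ranges (6.52 to 6.83, 7.37 to 7.56 and 8.44 to 8.78) lay near arrays 1 and 2. Tmem158, a membrane protein induced by Ras signalling, showed the same arrangement at 6.37 and 6.36 against 4.87, 5.17 and 4.86 (difference 1.40, SE 0.172, adjusted p = 0.000277).

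Sh3bgrl1 behaved otherwise: its levels were 9.61 and 9.71 against 6.99, 7.19 and 8.66, a difference of 2.04 (SE 0.453, adjusted p = 0.00895), with array 5 far above arrays 3 and 4. Gmnc, a coiled-coil regulator of the multiciliated cell programme, had 7.05 and 6.94 against 4.98, 5.19 and 5.74 (difference 1.69, SE 0.400, adjusted p = 0.0122). St3gal6, a sialyltransferase, had 8.30 and 8.38 against 5.98, 7.004 and 7.33 (difference 1.57, SE 0.382, adjusted p = 0.0139). In all 3 the controls alone ranged widely, over 7.59 to 9.10, 4.84 to 6.64 and 6.31 to 7.78, and the contrast of food deprivation with control did not pass. The other 4 of the 12 largest increases were Actr2-ps1 (1.92), Cnfn (1.57), Lrrn4 (1.54) and Phldb3 (1.42). Actr2-ps1 is annotated as a pseudogene of Actr2, and whether its probe set tells the copy from the parent gene was not tested.

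Among the genes that fell on arrays 1 and 2, the vasopressin gene Avp and the oxytocin gene Oxt changed most. Avp had levels of 6.52 and 6.42 against 10.38, 9.77 and 8.37, a difference of -3.03 (SE 0.663, 8.19-fold, adjusted p = 0.00837). Oxt had 7.68 and 6.54 against 10.39, 11.21 and 8.80, a difference of -3.02 (SE 0.700, 8.12-fold, adjusted p = 0.0111). Pmch, which encodes melanin-concentrating hormone, had 5.25 and 6.23 against 8.54, 8.24 and 7.54, a difference of -2.37 (SE 0.695, adjusted p = 0.0324). All 3 are peptides of hypothalamic neurons, and in all 3 array 5 was the lowest of its set. Food-deprived arrays held 5.42 to 6.04, 6.20 to 6.76 and 4.60 to 5.90, and controls 8.03 to 10.46, 8.73 to 10.89 and 6.29 to 9.61. Without array 3, Avp (-2.60, adjusted p = 0.0314) and Oxt (-2.89, adjusted p = 0.0342) still passed and Pmch (-2.15, adjusted p = 0.0939) did not.

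H1f10, a linker histone, had levels of 4.79 and 4.62 against 7.84, 7.39 and 7.27, a difference of -2.79 (SE 0.344, adjusted p = 0.000277). Sema4b, a semaphorin, had 4.65 and 4.25 against 7.51, 7.09 and 6.69, a difference of -2.64 (SE 0.246, adjusted p = 3.58e-05). Nnat, the imprinted membrane protein neuronatin, had 9.40 and 9.09 against 11.84, 11.53 and 11.18, a difference of -2.27 (SE 0.198, adjusted p = 2.53e-05). These 3 kept their call without array 3, with differences of -2.62, -2.44 and -2.11, and in each the sets were separated by more than the range within either set. H1f10 and Sema4b were lower on arrays 1 and 2 than on any food-deprived array, where the ranges were 5.70 to 7.15 and 5.78 to 6.07, although the contrast of arrays 1 and 2 with food deprivation did not pass for either. On arrays 1 and 2 both were dim, with signals of 11.8 and 8.68 for H1f10 and of 9.08 and 3.09 for Sema4b. These lie below the level of the filter (log2 5.11), so the size of both differences is less certain.

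Several of the other large decreases were in genes known for their expression in neurons. Cyp46a1, the cholesterol 24-hydroxylase of neurons, differed by -2.37 (SE 0.391) and by -1.81 without array 3. Cnih2, an auxiliary subunit of AMPA receptors, differed by -2.25 (SE 0.446) and by -1.66 without array 3. Eef1a2, the translation elongation factor of neurons and muscle, differed by -2.15 (SE 0.281) and by -1.95 without it. Brsk1, a kinase of neuronal polarity, Ctxn1, the membrane protein cortexin, and Plppr2, a phospholipid phosphatase-related protein, differed by -2.14, -2.13 and -2.11. In Cyp46a1, Cnih2, Brsk1 and Plppr2 array 3 lay more than 1 log2 unit above the next highest array. Of the 24 genes with the largest differences, 23 passed without array 3, Pmch being the exception.

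**Figure D3:**
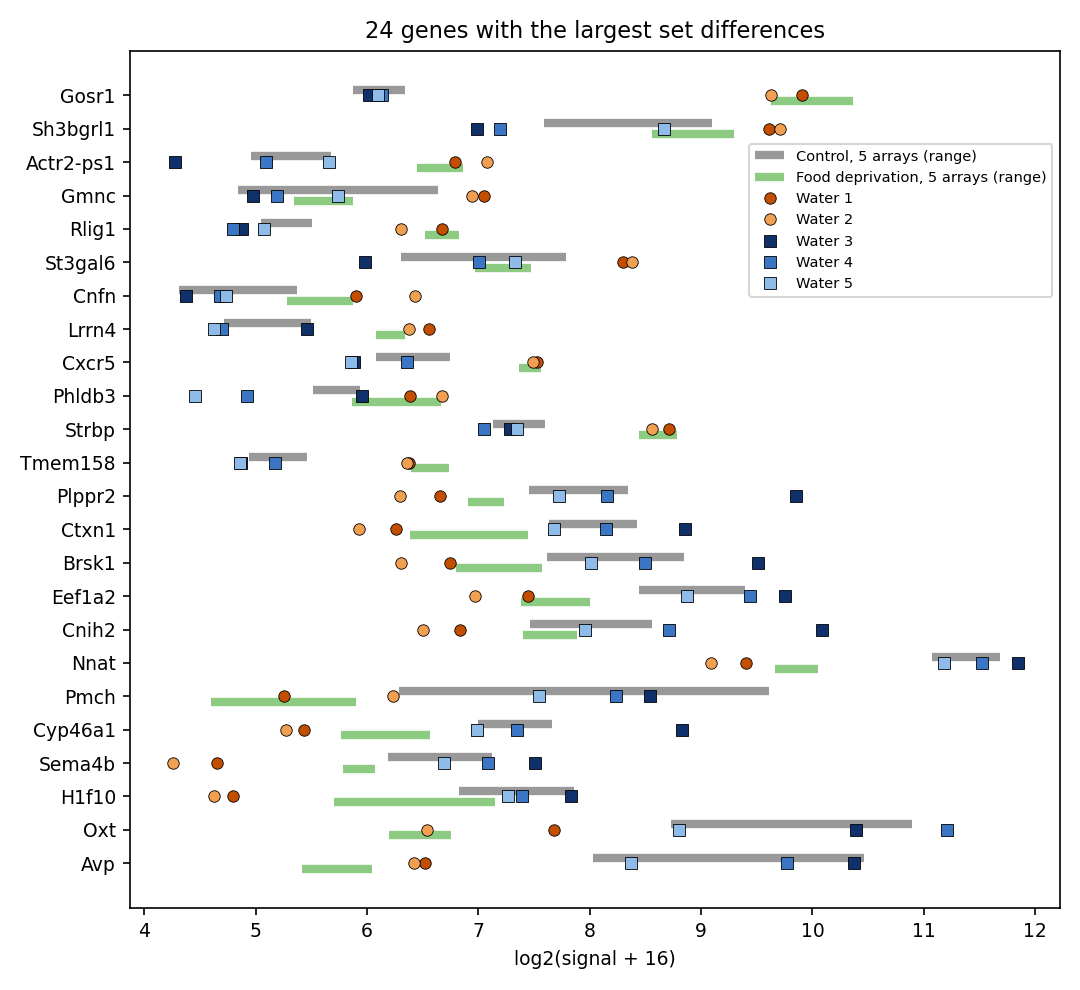
Log2(signal + 16) (horizontal axis) of the 12 genes with the largest increase and the 12 with the largest decrease on water-deprived arrays 1 and 2 (circles) against arrays 3 to 5 (squares). Bars give the range of the 5 control and the 5 food-deprived arrays, and for 19 of the 24 genes food deprivation differed from control in the same direction by the test.

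Probe sets of the same gene could differ. Of 3038 genes with more than 1 tested probe set, 1155 had at least 1 that passed. Among these, 51 had all probe sets higher, 24 had all lower, 54 had probe sets that passed in opposite directions, and 1026 had some that passed and some that did not. Tpm3, a tropomyosin chosen after its values were seen, had 11 tested probe sets. The most changed had levels of 9.28 and 8.78 against 4.98, 4.71 and 5.47 (difference 3.98, SE 0.270), while another had 8.69 and 8.61 against 9.66, 9.24 and 9.28 (difference -0.75, adjusted p = 0.0059). Nipbl, the cohesin loader, had a probe set that fell by 1.42 (adjusted p = 0.0015) and another that differed by 1.15 (adjusted p = 0.0039). Kat6b, a histone acetyltransferase, and Gabbr1, a subunit of the GABA-B receptor, both also chosen after their values were seen, showed the same split, at -1.79 and 0.62 and at -1.0002 and 1.27. A gene value in this comparison therefore holds for its probe set only, and further probe sets are given below for some of the named genes only.

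The gene lists below cover the cell types of the organ and its neighbours, housekeeping complexes and fluid balance. Their counts are read against the 6.48% of all genes that were higher and the 8.09% that were lower, and their medians against 0.027 over all 11510 genes. Of the 11510 genes, 6057 had a difference above 0 and 5453 below 0. Counts and medians without array 3 have another base. In that fit 393 of the 11510 genes were higher and 585 lower, with a median of 0.016.

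Choroid plexus and ependymal markers had the highest median of the lists, 1.18 over 21 tested of 26 members, but 1 passed. The mean level of the list was 9.64 and 10.14 on arrays 1 and 2 and 7.18, 9.34 and 9.68 on arrays 3, 4 and 5, so that array 5 overlapped array 1 and array 3 stood far below the rest. Array 3 was the lowest of the 5 water-deprived arrays in 20 of the 21 genes. How often array 3 was lowest over all genes was not computed, so this count is not particular to the list. Without array 3 the median was 0.269 and no member passed. Ttr, the thyroid hormone carrier secreted by the choroid plexus, was the member that passed, with 12.21 and 12.40 against 10.85, 11.61 and 11.74 (difference 0.90, SE 0.232, adjusted p = 0.0179), and without array 3 it differed by 0.63 (adjusted p = 0.0522). Folr1, the folate receptor, and Sostdc1, a secreted antagonist of bone morphogenetic proteins, were added after their values were seen. Folr1 had levels of 10.73 and 11.46 against 6.91, 10.27 and 10.54, and Sostdc1 had 11.56 and 12.12 against 5.99, 10.99 and 11.37. The list mean ranged from 7.46 to 10.01 over the controls and from 8.59 to 9.64 over the food-deprived arrays. In such pooled tissue, fewer cells of a type and less RNA per cell cannot be told apart.

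Hypothalamic peptide genes had a median of -0.565 over 12 tested of 20 members, with 0 higher and 3 lower; 7 members were too dim to test. Avp, Oxt and Pmch were the 3. The list mean was 6.55 and 6.46 against 7.82, 7.79 and 6.98, without overlap, and the median was -0.465 without array 3. Food-deprived arrays held 6.22 to 6.43 and controls 6.83 to 7.68. No other member passed. Sst, somatostatin, had 5.87 and 5.58 against 6.08, 7.88 and 6.29 (-1.03, adjusted p = 0.0963), and passed without array 3 (-1.36, adjusted p = 0.0469). Cartpt, a peptide of feeding circuits, had 7.36 and 7.50 against 8.36, 8.38 and 7.56 (-0.67, adjusted p = 0.0735), and Hcrt, the orexin gene, had 6.63 and 6.91 against 6.96, 7.05 and 6.71 (-0.14, adjusted p = 0.827). The part of neighbouring hypothalamic tissue in these values was not tested.

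Neuron markers had a median of -0.551 over 32 tested members, with 1 higher and 7 lower. Vgf, a secretory granule protein, Ina, an intermediate filament, and Syp, a synaptic vesicle protein, changed the most among those that passed, by -1.49, -1.26 and -1.12. Syp had levels of 8.08 and 8.03 against 9.61, 9.17 and 8.74 (SE 0.282, adjusted p = 0.0163). Without array 3, Syp (adjusted p = 0.0608) and Ina (adjusted p = 0.0931) lost their calls. Snap25, a SNARE of the synapse, did not pass, at 11.06 and 10.63 against 11.37, 10.82 and 10.75 (-0.13, adjusted p = 0.758), and Syt1, the calcium sensor of vesicle release, was the member that was higher (0.73, adjusted p = 0.00531). The list mean was 8.49 and 8.11 against 9.41, 8.79 and 8.51, so that arrays 1 and 5 nearly met. Array 3 was highest of the 5 in 23 of the 32 genes, and the share over all genes was not computed. Without array 3 the median was -0.36, with 1 higher and 3 lower.

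Synaptic vesicle and SNARE genes, which share members with the neuron list, had a median of -0.458 over 33 tested, with 3 higher and 7 lower. Syngr3, a synaptic vesicle protein, had 8.03 and 7.82 against 9.44, 9.38 and 9.13 (-1.40, SE 0.266, adjusted p = 0.00415). Vamp2, the vesicle SNARE, differed by -1.05 (adjusted p = 0.0125), and Gosr1, which belongs to this list, was higher as given above. Over all tested probe sets of the members the median was -0.167, and without array 3 it was -0.201.

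Oligodendrocyte and myelin markers had a median of 0.402 over 21 tested and no member passed. Its list mean was 8.93 and 8.32 against 7.59, 8.87 and 8.22, overlapping. Array 3 was lowest in 18 of 21 genes, again without a computed share over all genes. The median was 0.067 without array 1, 0.815 without array 2, 0.164 without array 3, 0.784 without array 4 and -0.147 under spike-in scaling. Mbp, myelin basic protein, had 12.08 and 11.92 against 10.76, 11.67 and 11.37 (0.74, SE 0.249, adjusted p = 0.0574). Astrocyte markers had a median of -0.174 with 1 higher and 2 lower of 20, and 0 higher and 1 lower without array 3. The median was -0.326 without array 1 and -0.04 without array 2. Atp1b2, a sodium pump subunit of astrocytes, had 8.64 and 8.90 against 10.65, 10.10 and 10.19 (-1.54, SE 0.165, adjusted p = 9.76e-05), and Gfap, the astrocyte intermediate filament, had 10.04 and 9.84 against 11.16, 10.79 and 10.42 (-0.85, SE 0.229, adjusted p = 0.0226). Slc7a10, an amino acid transporter, was higher by 0.83. Without array 3, Gfap (adjusted p = 0.0821) and Slc7a10 (adjusted p = 0.0923) lost their calls and Atp1b2 kept its own. Aqp4, the water channel of astrocyte endfeet, had 11.09 and 10.69 against 10.94, 10.80 and 10.86.

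Microglia and macrophage markers had a median of 0.085 over 19 tested, and of 0.182 without array 3. Of the 19, 10 were above 0, near the share over all genes (6057 of 11510). Of the 19, 0 were higher and 2 lower, Csf1r (-0.61) and Fcer1g (-0.54), both without a call once array 3 was left out. Endothelial and mural markers had no member that passed among 21. Meningeal and fibroblast markers had a median of -0.111 over 17 tested, 10 of them below 0 (5453 of 11510 over all genes), and 1 passed. That was Ptgds, a prostaglandin synthase of the leptomeninges, which was higher (12.36 and 12.60 against 11.70, 11.56 and 11.74, difference 0.81, adjusted p = 0.0144). The haemoglobin gene Hbb was higher by 1.03 (adjusted p = 0.0172) with 10.89 and 11.16 against 9.54, 10.19 and 10.23, and lost its call without array 3 (adjusted p = 0.0642). Of 15 blood genes 3 were tested, 5 were too dim and 7 had no probe set of their own. Hippocampal and thalamic markers had a median of 0.17 over 13 tested, with 9 above 0. Nptxr, a pentraxin receptor of hippocampal neurons, fell by 1.74 (adjusted p = 0.00271) and was the member that passed, against the direction of most of the list.

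Of 70 tested genes of oxidative phosphorylation, 19 were higher and 0 lower, and 65 had a difference above 0, against 6057 of all 11510 genes. The median was 0.297 as deposited, 0.175 after quantile normalization and -0.253 under spike-in scaling. Sdhd, a subunit of succinate dehydrogenase, had 9.95 and 10.12 against 9.09, 9.48 and 9.50 (0.68, SE 0.177, adjusted p = 0.019). Cox6c, a subunit of cytochrome c oxidase, had 11.71 and 11.95 against 11.36, 11.33 and 11.26 (0.52, adjusted p = 0.0214), and Atp5f1b, of the ATP synthase, differed by 0.50 (adjusted p = 0.0409). The list mean did not overlap, at 10.14 and 10.30 against 9.88, 9.97 and 9.96. Food-deprived arrays (9.87 to 10.06) and controls (9.72 to 10.13) did not divide in this way, and the median difference between those groups was 0.045. Without array 3, 7 passed and the median was 0.251. Sdhd (adjusted p = 0.0698) and Atp5f1b (adjusted p = 0.136) lost their calls there, and Cox6c kept its own.

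Cytosolic ribosomal protein genes had 11 higher and 0 lower of 40 tested, and 16 higher without array 3. Rps6, of the small subunit, had 11.90 and 12.01 against 11.49, 11.40 and 11.45 (0.51, SE 0.094, adjusted p = 0.00334), and Rpl39, of the large subunit, had 7.75 and 7.51 against 6.74, 7.04 and 5.94 (1.05, SE 0.262, adjusted p = 0.0154). The median was 0.224 as deposited, -0.043 after quantile normalization and -0.325 under spike-in scaling, so its direction depends on the scaling. Proteasome genes had 4 higher and 2 lower of 39, among the former Psmc6, an ATPase of the regulatory particle (0.67, adjusted p = 0.00977).

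Splicing and RNA-binding protein genes moved in both directions, with 9 higher and 5 lower of 48. Ddx17, an RNA helicase, had 7.68 and 7.40 against 6.09, 6.58 and 6.74 (1.07, SE 0.173, adjusted p = 0.00154). Its second tested probe set differed by -0.56 (adjusted p = 0.084). Nono, a paraspeckle protein, had 9.21 and 9.14 against 10.08, 10.05 and 10.05 (-0.89, SE 0.108, adjusted p = 0.00026), with array 3 level with arrays 4 and 5. The second tested probe set of Nono differed by 0.29 (adjusted p = 0.27). The chaperone list had 1 higher and 2 lower of 32: Dnajb6, an Hsp40, rose by 1.16 (adjusted p = 0.000352), and Stip1 and Hsp90ab1 fell by 0.77 and 0.40, the latter without a call once array 3 was left out (adjusted p = 0.0588).

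Large cytoskeletal and scaffold protein genes had 2 higher and 11 lower of 40 tested, and 2 and 7 without array 3. The median was -0.36, with -0.333 after quantile normalization and -0.18 over all tested probe sets of the members. Map1a, a microtubule-associated protein, had 7.02 and 7.01 against 8.56, 8.11 and 7.80 (-1.14, SE 0.213, adjusted p = 0.00354). Dync1h1, the dynein heavy chain, had 8.79 and 9.07 against 9.97, 9.54 and 9.52 (-0.74, adjusted p = 0.00334), and Utrn, utrophin, was 1 of the members that were higher (1.01, adjusted p = 0.0138). Bsn, the presynaptic scaffold bassoon, had 6.28 and 5.86 against 9.42, 7.17 and 7.13, where array 3 alone carried the call (-1.84, adjusted p = 0.0354, and -1.08, adjusted p = 0.0851, without it). Chromatin and transcription regulator genes had 3 higher and 10 lower of 37, and 1 and 9 without array 3. Kmt2d, a histone methyltransferase, had 7.49 and 7.36 against 8.56, 8.38 and 8.19 (-0.95, SE 0.152, adjusted p = 0.00142), and its relative Kmt2a differed by -0.86. Transcript length itself was not measured here.

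**Figure D4:**
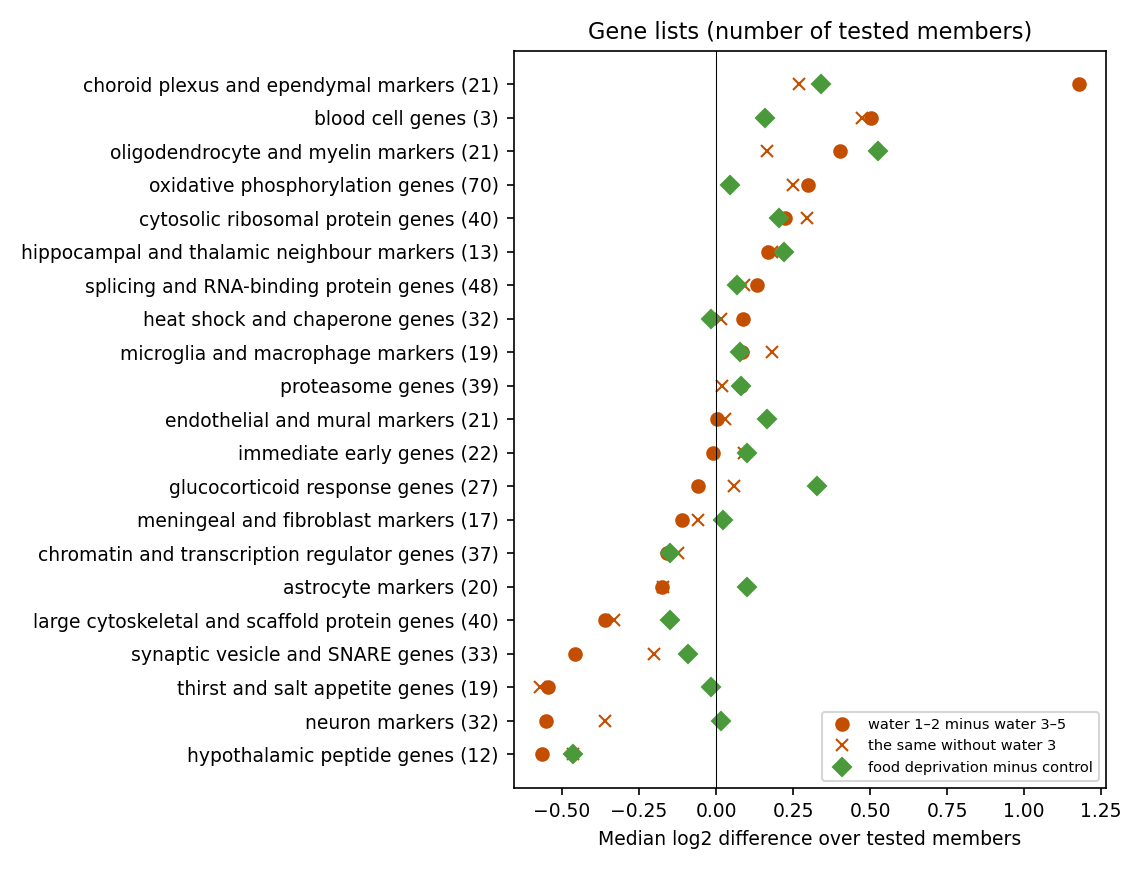
Median log2 difference over the tested members of each gene list (number in brackets) for water-deprived arrays 1 and 2 minus arrays 3 to 5 (circles), the same without array 3 (crosses) and food deprivation minus control (diamonds). The choroid plexus median moves from 1.18 to 0.269 without array 3, while the hypothalamic peptide medians lie together near -0.5.

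Some of the genes for which the study's treatment is of most interest were divided as well. Of 19 tested thirst and salt appetite genes, 0 were higher and 5 lower on arrays 1 and 2, with a median of -0.547 and of -0.57 without array 3; 12 members were too dim. Over all tested probe sets of the members the median was -0.27. Casr, the calcium-sensing receptor, had 6.35 and 6.30 against 7.16, 7.59 and 7.36 (-1.04, SE 0.248, adjusted p = 0.0127). Npr1, a natriuretic peptide receptor, had 6.36 and 6.57 against 7.58, 7.53 and 7.35 (-1.02, SE 0.225, adjusted p = 0.00872). Calcr, the calcitonin receptor, had 7.998 and 7.61 against 8.97, 8.70 and 8.53 (-0.93, SE 0.227, adjusted p = 0.0139), while its second probe set differed by 0.54 (adjusted p = 0.237). Arrays 3, 4 and 5 lay close together in each of the 3, and the sets did not overlap. The other 2 were Npr2, another natriuretic peptide receptor (-0.79), and Slc6a6, the taurine transporter (-0.75), whose call was lost without array 3 (adjusted p = 0.078).

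Agtr1a, the angiotensin II receptor of the organ, had 7.35 and 7.53 against 8.73, 8.75 and 8.51, which did not overlap, but the difference of -1.22 (SE 0.403) did not pass (adjusted p = 0.0524). It passed in the fit of the 5 water-deprived arrays alone (adjusted p = 0.034), and a second probe set differed by 0.02. Scn7a, the sodium-sensing channel, had 5.28 and 5.20 against 5.78, 6.22 and 6.12 (adjusted p = 0.132). Dusp1, an early phosphatase, was lower on arrays 1 and 2, at 6.97 and 7.34 against 8.07, 8.39 and 8.12 (-1.04, SE 0.182, adjusted p = 0.00246). Fos, the early transcription factor, had 6.46 and 6.24 against 7.18, 6.85 and 6.68 (-0.56, adjusted p = 0.143). Klf2, another early gene, was higher, at 7.39 and 7.10 against 6.30, 6.31 and 6.30 (0.95, SE 0.122, adjusted p = 0.000403). Its second tested probe set differed by 0.0006 (adjusted p = 0.998). Of 22 early genes tested, 1 was higher and 2 lower.

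For several genes, arrays 1 and 2 were set beside food deprivation and arrays 3 to 5 beside control. Arrays 1, 2, 4 and 5 had ratios within the range of these groups. Array 3, at -2.81, lay below every control (-1.67 to -1.24), so the contrast of arrays 3 to 5 with control is not matched in ratio. No contrast of arrays 1 and 2 with food deprivation passed for these genes. Vgf had 8.04 and 8.12 against 10.06, 9.42 and 9.22, a set difference of -1.49 (SE 0.295, adjusted p = 0.00505). Arrays 1 and 2 exceeded food deprivation (6.73 to 7.14) by 1.14 (SE 0.270, adjusted p = 0.324), and arrays 3 to 5 exceeded control (7.02 to 8.25) by 1.89 (SE 0.236, adjusted p = 0.0148). Arrays 1 and 2 thus lay inside the control range but above every food-deprived array. Fxyd2, a regulator of the sodium pump, repeated this, with 6.24 and 6.01 against 7.17, 7.22 and 7.03, and 5.27 to 5.76 in food deprivation. Its set difference was -1.01 (SE 0.206, adjusted p = 0.00564). Fxyd2 exceeded food deprivation by 0.53 on arrays 1 and 2 (adjusted p = 0.404) and control by 1.18 on arrays 3 to 5 (adjusted p = 0.0148). Casr exceeded food deprivation by 0.54 on arrays 1 and 2 (adjusted p = 0.447) and control by 1.35 on arrays 3 to 5 (adjusted p = 0.0227).

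Of the genes set beside food deprivation and control in this way, Bpifa1, a secreted lipid-binding protein, was the one whose sets overlapped. Its levels were 6.04 and 6.37 against 6.43, 6.21 and 6.29, a set difference of -0.11 (SE 0.180, adjusted p = 0.719) that turns to 0.06 without array 1. All 5 water-deprived arrays were above all 5 controls (5.01 to 5.49) and all 5 food-deprived arrays (5.11 to 5.61). Bdnf, the neurotrophin, had 6.87 and 6.74 against 8.59, 7.10 and 7.65 (-0.98, SE 0.512, adjusted p = 0.206), with food-deprived arrays at 4.71 to 5.58 and controls at 4.36 to 6.74. The second tested probe set of Bdnf differed by 0.02 between the sets (adjusted p = 0.974). For Bpifa1 the difference from food deprivation on arrays 1 and 2 was 0.88 (adjusted p = 0.236) and that from control on arrays 3 to 5 was 1.05 (adjusted p = 0.0148). For Bdnf they were 1.72 (adjusted p = 0.352) and 2.24 (adjusted p = 0.13), and neither passed.

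**Figure D5:**
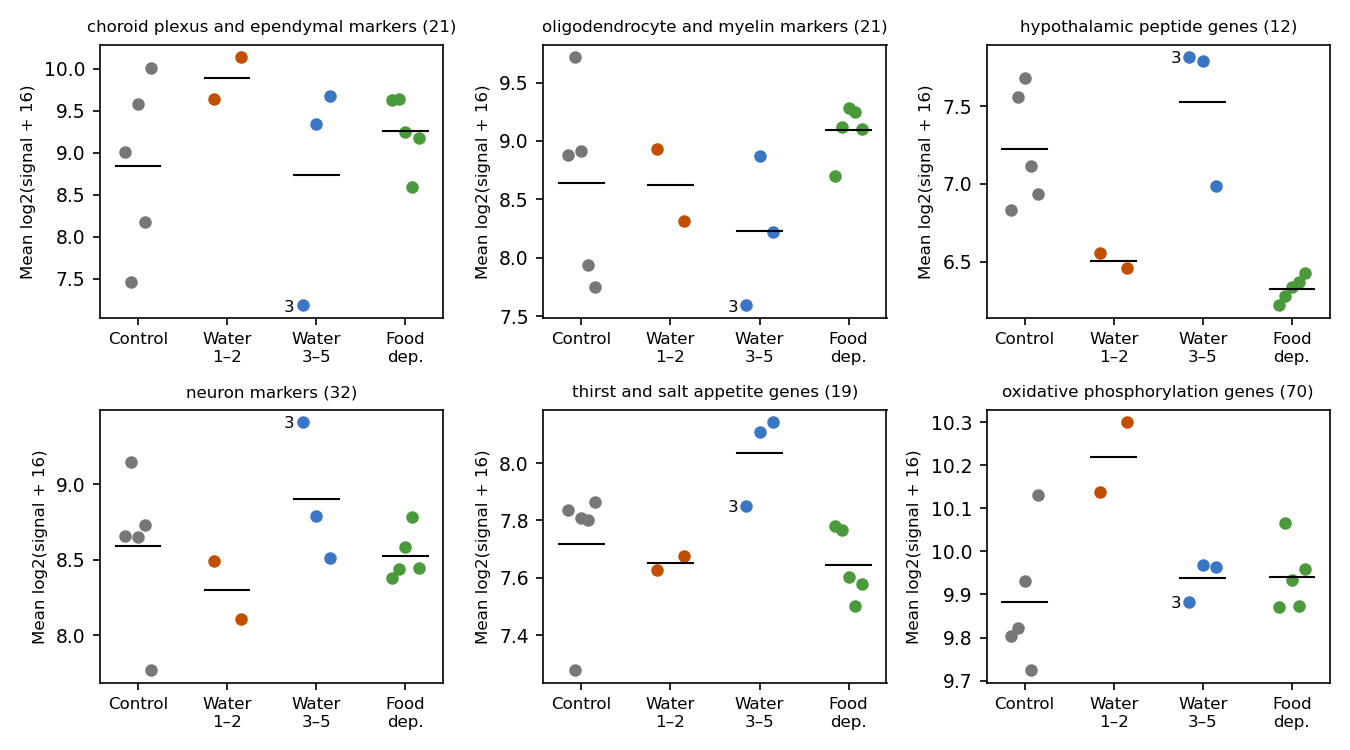
Mean log2(signal + 16) of 6 gene lists (vertical axes, different ranges) on each array, by control, water-deprived arrays 1 and 2, water-deprived arrays 3 to 5 and food deprivation, with group means as lines and water-deprived array 3 marked. In the choroid plexus panel array 3 is at 7.18 while the other 4 water-deprived arrays are at 9.34 to 10.14, and in the hypothalamic peptide panel arrays 1 and 2 lie between food deprivation and the controls.

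Contrasts of arrays 1 and 2 with food deprivation and of arrays 3 to 5 with control gave few calls over the whole table. Between arrays 1 and 2 and food deprivation, limma called 0 of 21729 probe sets, with 2174 at an unadjusted p under 0.05 and a lowest adjusted p of 0.215. Between arrays 3 to 5 and control it called 6 (0.0276%), all higher on the water-deprived arrays, with 1295 at an unadjusted p under 0.05. Among the 6 were the probe sets of Vgf, Casr, Fxyd2 and Bpifa1. Without array 3 limma called 0 probe sets as higher, and without array 4 it called 1. None of the 72 named genes differed between arrays 1 and 2 and food deprivation by the adjusted test, which with 2 arrays in a set does not show that they were alike.

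Food deprivation against control shares no array with the set difference, and all of its arrays fall on opposite sides of the same ratio. In that contrast 3984 probe sets passed (18.3%), 2419 higher (11.1%) and 1565 lower (7.2%). By gene, 1640 passed (14.2%), 883 higher (7.67%) and 757 lower (6.58%). Of the 3461 that passed between the sets, 1926 also passed there in the same direction and 0 in the opposite direction, which is 55.6% of the former and 48.3% of the latter. The same sign was seen for 3341 of the 3461, and the share over all tested probe sets was not computed. Both contrasts came from the same fit and share its estimate of the spread, so their calls are not independent. In the dimmest bin the medians of both were above 0, at 0.215 between the sets and 0.14 between food deprivation and control. Sh3bgrl1, Gmnc, St3gal6, Phldb3 and Cnih2 were the 5 of the 24 genes with the largest set differences that did not pass there. In that contrast treatment and ratio cannot be told apart, and within water deprivation the ratio cannot be told apart from anything else that separated these pools.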

How the data were processed

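The values are signal intensities per probe set on a linear scale, deposited by the authors and made with GCOS 1.2 per the submitters' processing notes. Tested on the table, each array has a trimmed mean of 100.0 (2% off each end). Of 31042 probe sets that are not controls, 20826 have 1 gene symbol, 436 several and 9780 none. Values were used as log2(signal + 16) without further normalization. Probe sets with a 15-array mean above the 30th percentile (log2 5.11) entered the test. A gene is its brightest tested probe set that is assigned to it alone. R 4.3.3 and limma 3.58.1 fitted 4 means (control, food deprivation, and the 2 sets of water-deprived arrays) to all 15 arrays, with a variance trend and two-sided tests. p values were adjusted by Benjamini-Hochberg over all tested probe sets at 0.05. The scripts were tested on simulated data. Arrays give no counts, so their number limits the precision.

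The sets, gene lists and tests were chosen with earlier results of these data known. Genes named are the 12 largest increases and 12 largest decreases that passed without overlap of the sets, for each list at most 3 that passed, and a fixed set, and any others are named after their values were seen. Actb and Gapdh have control probe sets only among those used, so these have no test. Alternatives were median centring, quantile normalization, an offset of 1 or 64, other filters, no variance trend, array weights, the 5 water-deprived arrays alone, a minimum of 1.5-fold, a replicate block and leaving out each array. Pools carry replicate numbers, and deviations of same-numbered arrays correlated at -0.523 to 0.572, so the numbers were not taken to pair the pools. Each array is a separate pool, so p values measure the spread between pools. Figures used Python 3.11.15 and matplotlib 3.10.9.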

Additional observations from a re-analysis of the deposited data

Results flagged for a closer look

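Among groups of 5 arrays, 8 of 171 values examined had 1 array far from the others, which is close to the 1 in 20 that chance alone gives. The choroid plexus and ependymal markers of water-deprived array 3 had a mean log2 level of 7.18, against 9.34 to 10.14 on the other 4 water-deprived arrays. Control array 2 was low for the thirst and salt appetite genes (7.28) and for the glucocorticoid response genes (7.49). Food-deprived array 1 was low for the hippocampal and thalamic markers (7.31). Single genes on food-deprived arrays were Pmch on array 3 (4.60), Rlig1 on array 3 (6.83), St3gal6 on array 4 (6.97) and Strbp on array 2 (8.78). The cause was not tested for any of these.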

How the results depend on the processing

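For the probe sets higher and lower on water-deprived arrays 1 and 2 (2062 and 1399), a filter at the 50th percentile gave 1327 higher, median centring gave 1076 and 2497, the fit of only the 5 water-deprived arrays 118 and 202, and spike-in scaling, added after seeing the data, 71 and 3626. The replicate block gave 546 and 556. Leaving out 1 array gave 464 to 2313 higher and 374 to 1621 lower. For arrays 3 to 5 against control, leaving out 1 water-deprived array gave 0 to 6 higher and 0 to 7 lower. For food deprivation against control median centring gave 1421 higher and 2647 lower. Quantile normalization moved the list medians of astrocyte markers to -0.364, hippocampal and thalamic markers to 0.084, ribosomal genes to -0.043 and oxidative phosphorylation to 0.175. Median centring moved endothelial markers to -0.153, hippocampal and thalamic markers to 0.015, ribosomal genes to 0.069, oxidative phosphorylation to 0.142, proteasome to -0.073, splicing to -0.023, chromatin to -0.315, large scaffold genes to -0.515, chaperones to -0.068, early genes to -0.165, glucocorticoid response to -0.214 and thirst genes to -0.702. Taking all tested probe sets, also added later, moved chromatin to -0.068, large scaffold genes to -0.18, synaptic genes to -0.167, glucocorticoid response to 0.03 and thirst genes to -0.27. Leaving out 1 water-deprived array gave medians of -0.18 to 0.182 for microglia, -0.111 to 0.281 for endothelial, -0.296 to 0.029 for meningeal and 0.018 to 0.182 for hippocampal and thalamic markers. It gave 0.2 to 0.807 for blood, 0.197 to 0.374 for oxidative phosphorylation, 0.02 to 0.12 for proteasome, 0.039 to 0.153 for splicing, -0.19 to -0.111 for chromatin, -0.446 to -0.287 for large scaffold, -0.06 to 0.091 for early, -0.103 to 0.057 for glucocorticoid response and -0.711 to -0.432 for thirst genes. Bpifa1 turned to 0.06 without water-deprived array 1. Over all alternatives, of the other values of named genes, 1569 kept their side of the threshold, 213 lost the call and 10 gained it. The cause of these changes was not tested. Bins by coding length were not run.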
